A study of Rattus norvegicus with 6 samples.

Results

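The interleukin 6 (IL-6) family described here comprised 10 genes, chosen by their symbols, of the 18825 genes in the table. They were the 4 ligands Il6, Il11, Lif and Osm, the 5 receptor subunits Il6r, Il6st, Il11ra1, Lifr and Osmr, and the feedback inhibitor Socs3. All 10 had counts in every library and entered the test of 14427 genes. The tissue was dorsal wound skin of male Sprague–Dawley rats made diabetic with a high-fat, high-sucrose diet and then streptozotocin, a toxin of insulin-producing cells, and every wound went through the full skin thickness. In 3 animals the wounds had received DST-MNs. These microneedles hold spheroids of dental pulp stem cells, which were regulated with the polyamine spermidine and with TGF-β3. The 3 control animals were diabetic and wounded in the same way but untreated. Among these samples there was no group with microneedles that lacked the cells, and the labels do not state the rats' age, the collection day or the species of the stem cells.

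Cytokines of this family share the receptor chain gp130, which Il6st encodes. Il6r and Il11ra1 encode chains that each bind a ligand and do not signal by themselves, whereas Lifr and Osmr encode signalling chains that pair with gp130. The assembled receptors activate JAK kinases and the transcription factor STAT3, which induces Socs3, and the SOCS3 protein then blocks gp130. In skin wounds the family is known for its part in inflammation and re-epithelialisation, with IL-6 made by many cell types and oncostatin M (Osm) largely by myeloid cells and T cells. Among protein-coding genes of the GRCr8 assembly, Osm and Lif were direct neighbours, as were Osmr and Lifr, and Il6st lay next to Il31ra.

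Promoter windows from RefSeq on GRCr8, 250 bases before and 50 bases from the gene start on, were matched by gene ID for 7 of the 10 members, not for Lif, Osm and Il11ra1. They are shown for Il6, Il11 and Osmr, because these 3 windows held a searched motif and all 3 genes had lower values in DST-MNs wounds. Capitals mark the motif matches and lower case the remaining bases.
Il6 (chr4:5894526-5894825, minus strand): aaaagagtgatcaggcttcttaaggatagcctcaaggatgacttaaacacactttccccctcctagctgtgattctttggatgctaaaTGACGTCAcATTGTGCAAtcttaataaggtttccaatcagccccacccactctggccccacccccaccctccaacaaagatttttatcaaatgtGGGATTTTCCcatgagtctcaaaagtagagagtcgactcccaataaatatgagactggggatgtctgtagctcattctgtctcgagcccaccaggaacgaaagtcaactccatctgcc
Il11 (chr1:78098372-78098671, plus strand): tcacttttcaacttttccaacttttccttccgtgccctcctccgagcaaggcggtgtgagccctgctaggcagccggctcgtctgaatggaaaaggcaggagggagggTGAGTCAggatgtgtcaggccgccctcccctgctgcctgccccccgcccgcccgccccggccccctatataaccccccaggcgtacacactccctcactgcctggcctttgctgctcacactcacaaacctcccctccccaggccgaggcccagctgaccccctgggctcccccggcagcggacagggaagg
Osmr (chr2:57688512-57688811, minus strand): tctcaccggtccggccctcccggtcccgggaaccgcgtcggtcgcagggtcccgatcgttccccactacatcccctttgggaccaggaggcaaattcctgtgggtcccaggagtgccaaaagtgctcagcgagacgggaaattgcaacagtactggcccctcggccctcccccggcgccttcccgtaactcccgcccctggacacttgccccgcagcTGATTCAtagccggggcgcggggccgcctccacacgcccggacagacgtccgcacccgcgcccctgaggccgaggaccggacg
The search covered both strands for 5 motifs. In Il6 it found the CRE letters TGACGTCA, which 1.91% of 27457 promoter windows hold, a C/EBP match to TTGCNNAAT (2.63% of windows) and, as GGGATTTTCC, a match to the NF-kB motif (1.51% of windows; GGG, 2 bases of any kind, then TTTCC), none overlapping another. The AP-1 letters TGANTCA (7.33% of windows) were in the Il11 and Osmr windows. The STAT letters TTCNNNGAA, held by 8.68% of all windows, were in none of the 7. The windows follow annotated gene starts, which were not checked against the starts of transcription. Bases outside the windows, for Socs3 too, were not searched, so this absence does not show that a gene lacks STAT sites. A match is a description of the letters in the window, not evidence of binding.

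Totals ran from 12545206 to 13818548 counts per library. Levels are given in TPM, transcripts per 1000000, which are scaled by gene length, and changes are log2 changes of DST-MNs over control from edgeR's quasi-likelihood test on counts, adjusted over all genes by the Benjamini-Hochberg method. Counts scaled to a library total of 1000000 (CPM) carry TMM scaling but no length. Of all genes tested, 0.776% passed at an adjusted p below 0.05, and 0 of the 10 members did. At an unadjusted p below 0.05, 6 members were lower and 1 was higher after DST-MNs, where 6.88% and 9.80% of all genes were. DESeq2 called 5 members lower, Il6, Il11, Lif, Osm and Socs3, where it called 2.73% of all genes lower, and limma-voom called 0. In CPM, the groups did not overlap for 6 members, 5 with every DST-MNs library below every control and 1 with every DST-MNs library above, against 22.9% of all genes in either direction. The members' median log2 change was -1.21, against 0.00 over all genes tested. In bulk tissue, fewer cells of a type and less RNA per cell cannot be told apart. That the libraries came from separate animals is how the labels' term biological replicate is read here.

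**Figure D1:**
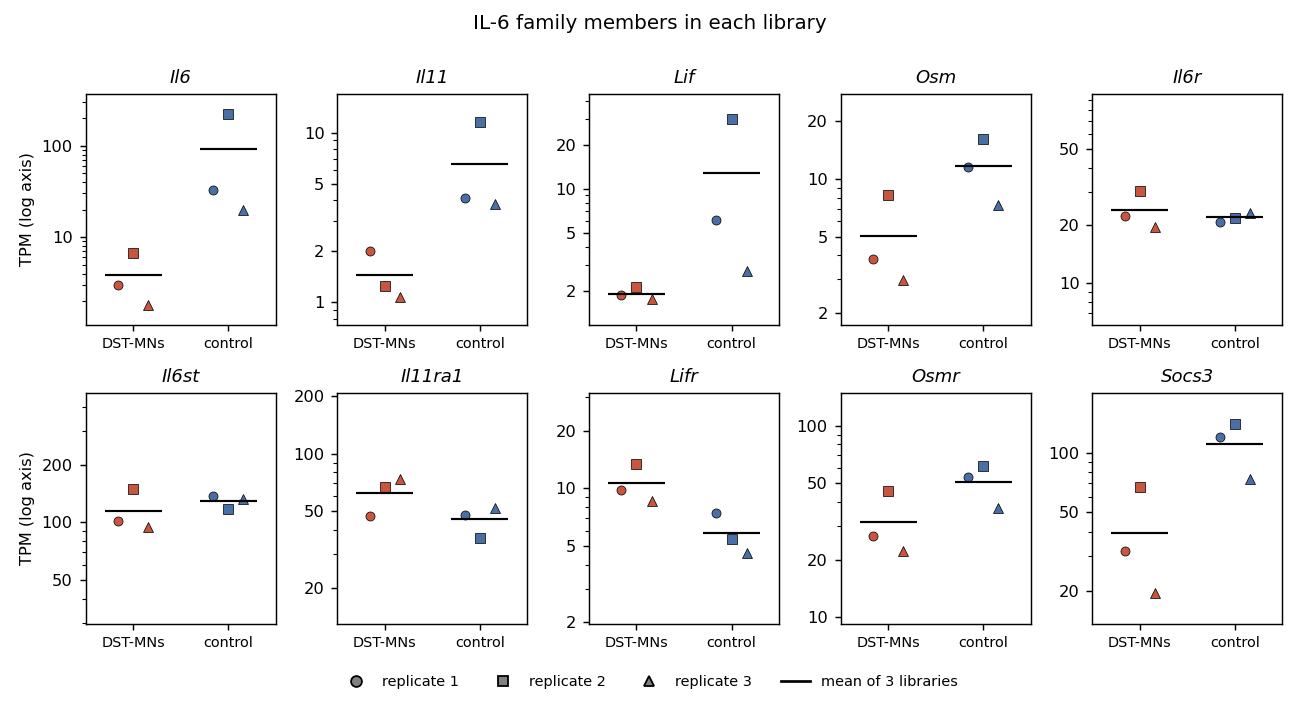
TPM of the 10 members on log axes, 1 panel per gene, with the 3 DST-MNs libraries left and the 3 control libraries right. Symbols stand for replicates and lines for group means. Il6 lies between 1.83 and 6.78 TPM in DST-MNs wounds, below the controls at 19.8 to 223 TPM, whereas Il6r and Il6st overlap between the groups.

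All 4 ligand genes had lower values in DST-MNs wounds, and in CPM their groups did not overlap. Il6, the founding cytokine of the family and an inducer of the acute phase response, had 3.03, 6.78 and 1.83 TPM in DST-MNs libraries 1, 2 and 3, against 32.7, 223 and 19.8 TPM in controls 1, 2 and 3. Every treated library lay below every control, and control 2 stood far above the other controls. The counts behind these values were 23, 50 and 14 in DST-MNs wounds and 269, 1784 and 151 in control wounds. The log2 change was -4.74 (SE 1.10, 95% interval -7.36 to -2.12, edgeR adjusted p = 0.131), a fitted level 26.8-fold lower. Among the 14427 genes tested only 1 had a lower fitted log2 change. Without control 2 the log2 change of Il6 was -2.94 (edgeR adjusted p = 0.198).

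Lif encodes leukaemia inhibitory factor, which signals through the pair of Lifr and gp130. It had 1.85, 2.10 and 1.75 TPM in DST-MNs libraries 1 to 3, against 6.07, 29.9 and 2.72 TPM in controls 1 to 3. The treated values lay close together, and control 2 was again the highest, with control 3 only slightly above the treated range. The log2 change of Lif was -2.76 (SE 0.82, 95% interval -4.72 to -0.80, edgeR adjusted p = 0.182), and -1.33 without control 2 (adjusted p = 0.392).

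Il11 encodes a cytokine known to act on fibroblasts and stromal cells. It had 2.01, 1.25 and 1.08 TPM in DST-MNs libraries 1 to 3, against 4.12, 11.6 and 3.80 TPM in controls 1 to 3. Its groups did not overlap, and its counts were low, 16 to 28 in DST-MNs and 59 to 174 in control libraries. The log2 change of Il11 was -2.36 (SE 0.52, 95% interval -3.60 to -1.13, edgeR adjusted p = 0.116), the smallest adjusted p among the members. Without control 2 it was -1.67 (adjusted p = 0.257).

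Osm stood at 3.82, 8.25 and 2.98 TPM in DST-MNs libraries 1 to 3, against 11.5, 16.2 and 7.29 TPM in controls 1 to 3. In TPM the groups overlapped, since DST-MNs 2 lay above control 3, while in CPM they stood at 8.95 in DST-MNs 2 and 9.95 in control 3 and the groups did not overlap. The log2 change of Osm was -1.56 (SE 0.43, 95% interval -2.59 to -0.53, edgeR adjusted p = 0.164), or -1.20 without control 2 (adjusted p = 0.469).

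The share of each ligand in their summed TPM, chosen after the values were seen, is a description with no test. The summed TPM of the 4 ligands was 10.7, 18.4 and 7.64 in DST-MNs libraries 1 to 3, against 54.4, 281 and 33.6 in controls 1 to 3. Il6 supplied 28.3%, 36.9% and 24.0% of that sum in DST-MNs wounds, against 60.1%, 79.5% and 58.9% in control wounds. Osm supplied 35.7%, 44.9% and 39.0% in DST-MNs wounds, against 21.2%, 5.78% and 21.7% in control wounds, so that it was the largest of the 4 in every treated library and Il6 in every control.

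The receptor genes had smaller log2 changes, of mixed sign. Their median log2 change was -0.02, against -2.56 for the ligands. Il6st had the highest mean TPM of the members in both groups. It stood at 101, 149 and 94.1 TPM in DST-MNs libraries 1 to 3 and 137, 118 and 133 TPM in controls 1 to 3, with overlapping ranges. In control 2, Il6 (223 TPM) and Socs3 (139 TPM) lay above Il6st. The log2 change of Il6st was -0.33 (SE 0.20, 95% interval -0.80 to 0.14, edgeR adjusted p = 0.450). Il6r, the IL-6 binding chain, had 22.3, 30.2 and 19.5 TPM in DST-MNs libraries and 20.9, 21.9 and 23.3 TPM in controls. Its treated range enclosed the control range. Its log2 change was -0.02 (SE 0.16) with a 95% interval of -0.40 to 0.36, and its sign was positive with total-count scaling and on log2(TPM + 1). Il11ra1, the IL-11 binding chain, had 47.4, 66.7 and 74.1 TPM in DST-MNs libraries and 47.7, 36.4 and 52.3 TPM in controls, and its groups overlapped. Its log2 change was 0.30 (SE 0.23, 95% interval -0.24 to 0.85).

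Lifr and Osmr, the chains that pair with gp130, had changes of opposite sign. Lifr stood at 9.87, 13.4 and 8.61 TPM in DST-MNs libraries 1 to 3, against 7.48, 5.45 and 4.63 TPM in controls 1 to 3. It was the only member of the 10 with every treated library above every control. Its log2 change was 0.70 (SE 0.24, 95% interval 0.12 to 1.28, edgeR adjusted p = 0.230). Osmr, the oncostatin M receptor chain, had 26.7, 45.4 and 22.3 TPM in DST-MNs libraries 1 to 3, against 54.1, 61.7 and 37.3 TPM in controls 1 to 3. Its groups overlapped, since DST-MNs 2 lay above control 3. The log2 change of Osmr was -0.86 (SE 0.31, 95% interval -1.60 to -0.13, edgeR adjusted p = 0.240). The ratio of Osmr to Lifr TPM within a library, chosen after the values were seen and unaffected by library scaling, was 2.71, 3.39 and 2.59 in DST-MNs wounds, against 7.24, 11.3 and 8.06 in control wounds.

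Socs3, the STAT3-induced inhibitor of gp130, had 31.9, 66.9 and 19.7 TPM in DST-MNs libraries 1 to 3, against 120.02, 139 and 73.5 TPM in controls 1 to 3. Its groups did not overlap, although DST-MNs 2 came close to control 3. The log2 change of Socs3 was -1.66 (SE 0.46, 95% interval -2.77 to -0.56, edgeR adjusted p = 0.166), a fitted level 3.17-fold lower. Without DST-MNs 2 it was -2.26 (adjusted p = 0.0799) and without control 2 it was -1.47 (adjusted p = 0.459).

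**Figure D2:**
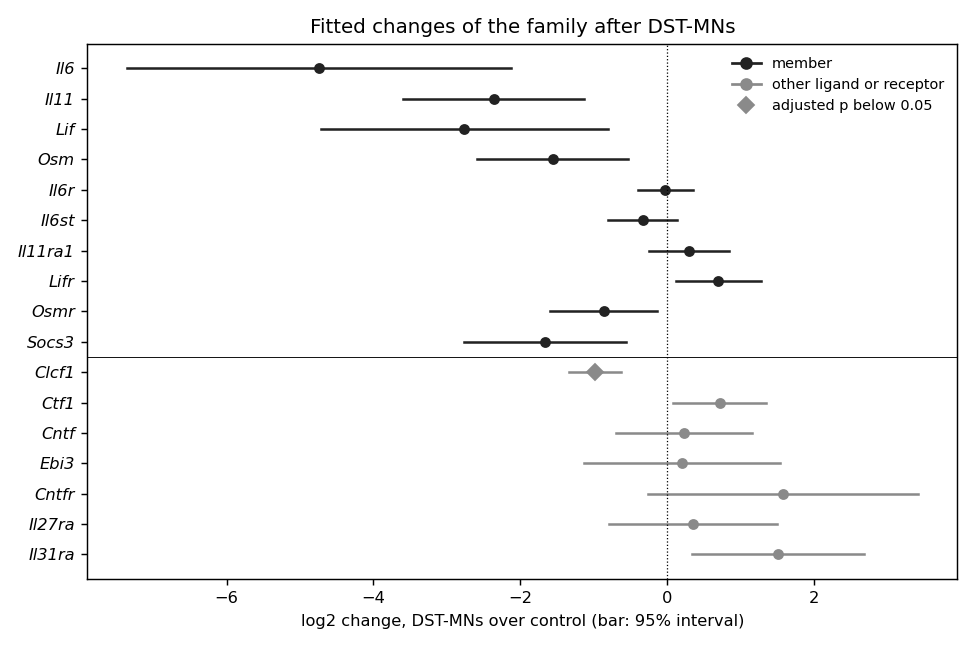
Fitted log2 change of each gene, DST-MNs over control, on the horizontal axis with its 95% interval as a bar. The 10 members are above the line and 7 other ligands and receptors of the family below it. The intervals of Il6, Il11, Lif, Osm, Osmr and Socs3 lie below 0 and that of Lifr above 0, and the diamond marks Clcf1, at -0.98, which passed the adjusted threshold.

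Ordered by mean TPM, the members in DST-MNs wounds were Il6st (115 ± 29.9, SD, n = 3), Il11ra1 (62.7 ± 13.8), Socs3 (39.5 ± 24.5), Osmr (31.5 ± 12.3), Il6r (24.0 ± 5.58) and Lifr (10.6 ± 2.48), with the 4 ligands below all receptors. The ranges of neighbours in that order overlapped for Il11ra1 and Socs3, Socs3 and Osmr, Osmr and Il6r, and between each ligand and the next, Osm, Il6, Lif and Il11. In control wounds the order was Il6st (129 ± 10.2), Socs3 (111 ± 33.8), Il6 (91.9 ± 114), Osmr (51.1 ± 12.5), Il11ra1 (45.5 ± 8.22), Il6r (22.0 ± 1.23), Lif (12.9 ± 14.8), Osm (11.7 ± 4.48), Il11 (6.50 ± 4.40) and Lifr (5.85 ± 1.47). Among neighbours in the control order, only Il11ra1 and Il6r had ranges that did not overlap with each other. Il6 thus stood 8th of 10 in treated wounds and 3rd in controls, where its mean rests on control 2.

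Several members had their highest or lowest value in the same library. Control 2 had the highest value of all 6 libraries for 6 members, Il6, Il11, Lif, Osm, Osmr and Socs3. Control 3 was the lowest control for 7, those 6 and Lifr. Within the treated group, DST-MNs 2 was the highest for 8 members, all but Il11, which was highest in DST-MNs 1, and Il11ra1, which was highest in DST-MNs 3.

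**Figure D3:**
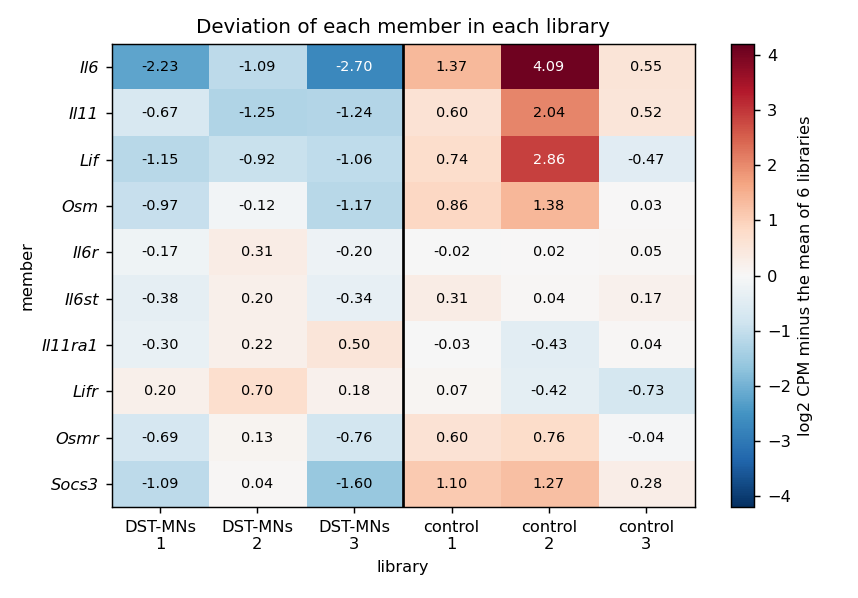
Log2 CPM of each member (rows) in each library (columns) minus its own mean over the 6 libraries, with the 3 DST-MNs libraries left of the line and the controls right. Il6 spans -2.70 in DST-MNs 3 to 4.09 in control 2, while Il6r stays between -0.20 and 0.31.

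Levels of cell type markers differed among these libraries, and the part of cell makeup in the members' values was not tested. Over the listed markers, fibroblast genes summed to 23853 to 28957 TPM in DST-MNs and 25393 to 35549 TPM in control libraries, with Col1a1 and Col3a1 among them, as dermal wound tissue has. All 7 had negative log2 changes, with a median of -0.23, and 0 passed edgeR's adjusted threshold. Only Pdgfra was lower at an unadjusted p below 0.05 (log2 change -0.77, edgeR adjusted p = 0.0723), and DESeq2 called it alone. All 7 keratinocyte markers were higher after DST-MNs at an unadjusted p below 0.05 and 0 passed edgeR's adjusted threshold, where DESeq2 called 3. They summed to 4083, 295 and 1259.6 TPM in DST-MNs libraries 1 to 3 and 179, 12.1 and 162 TPM in controls 1 to 3, and Krt15 was at 0 in control 2. Skeletal muscle markers summed to 3151 to 4437 TPM in DST-MNs libraries, and to 4594, 21.9 and 214 TPM in controls 1, 2 and 3, with Ckm, Myh2 and Myh4 at 0 in control 2. Sebaceous gland markers separated the groups, summing to 422, 396 and 380.4 TPM in DST-MNs libraries 1 to 3 against 30.6, 28.7 and 34.2 TPM in controls 1 to 3. Of 6 tested sebaceous genes 5 rose past edgeR's adjusted threshold, and the median log2 change was 6.43. They were Awat1, Awat2, Elovl4, Cyp2b12 and Fasn, which encode enzymes of lipid and fatty acid metabolism, and Awat1, Awat2 and Cyp2b12 were at 0 in control 2. All 6 endothelial markers had negative log2 changes with a median of -0.34, 0 passed edgeR's adjusted threshold, 2 were lower at an unadjusted p below 0.05 and DESeq2 called 1, and they summed to 320.1 to 445 TPM in DST-MNs and 375 to 473 TPM in control libraries. Of 6 T and NK cell markers and 4 tested adipocyte markers 0 passed, with 0 at an unadjusted p below 0.05 and 0 by DESeq2 or voom.

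Neutrophil markers, of which 7 of 8 were tested and none was at 0 in any library, summed to 1575, 3907 and 1278 TPM in DST-MNs libraries 1 to 3, against 2873, 3417 and 1280.3 TPM in controls 1 to 3. The calgranulin genes S100a8 and S100a9 made up most of each sum. Of the other neutrophil markers, Csf3r, the receptor for granulocyte colony-stimulating factor, stood at 11.9, 24.0 and 3.93 TPM in DST-MNs libraries 1 to 3 and 22.9, 23.3 and 15.1 TPM in controls 1 to 3. Log2 changes were negative in 6 of the 7 tested, and 0 passed edgeR's adjusted threshold. The exception was Fcgr3a, with a log2 change of 1.37 (SE 0.34, edgeR adjusted p = 0.142). Its treated libraries all lay above every control. Fcgr3a was also the only neutrophil marker called by DESeq2 (adjusted p = 0.00602). The other 6 all exceeded 0.05 in edgeR's p before adjustment, where Fcgr3a stood at 0.00517. DST-MNs 2 had the highest treated values of 8 members, and its neutrophil sum was the highest of all 6 libraries. Its Osm and Socs3 TPM lay below those of controls 1 and 2. Control 3, with a neutrophil sum of 1280.3 TPM, had more Socs3 (73.5 TPM) than DST-MNs 2 (66.9 TPM). It had less Osm (7.29 against 8.25 TPM) and less Osmr (37.3 against 45.4 TPM) than DST-MNs 2. A link between the neutrophil sum and the members was not tested. Macrophage markers summed to 3951 to 6622 TPM in DST-MNs and 3999 to 5042 TPM in control libraries, and Lyz2 made up most of each sum. Of the 8, 4 had positive and 4 negative log2 changes, with a median of -0.06. Only 1, Cd163, passed the test as lower (log2 change -1.75), while Cd68, Csf1r, Adgre1 and Lyz2 had positive changes. Genes of the immediate early and heat shock responses, which also react to how tissue is handled, had negative log2 changes in 11 of 11, 9 at an unadjusted p below 0.05, with 0 past edgeR's adjusted threshold and 8 called by DESeq2. The only heat shock gene among them, Hspa1b, was not among the 9 or the 8, and its groups overlapped (log2 change -0.61). The 11 genes summed to 708, 566 and 619 TPM in DST-MNs libraries 1 to 3, against 1121, 1617 and 936 TPM in controls 1 to 3, with the highest sum in control 2, as for the ligands. Whether they share in the ligands' difference was not tested.

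**Figure D4:**
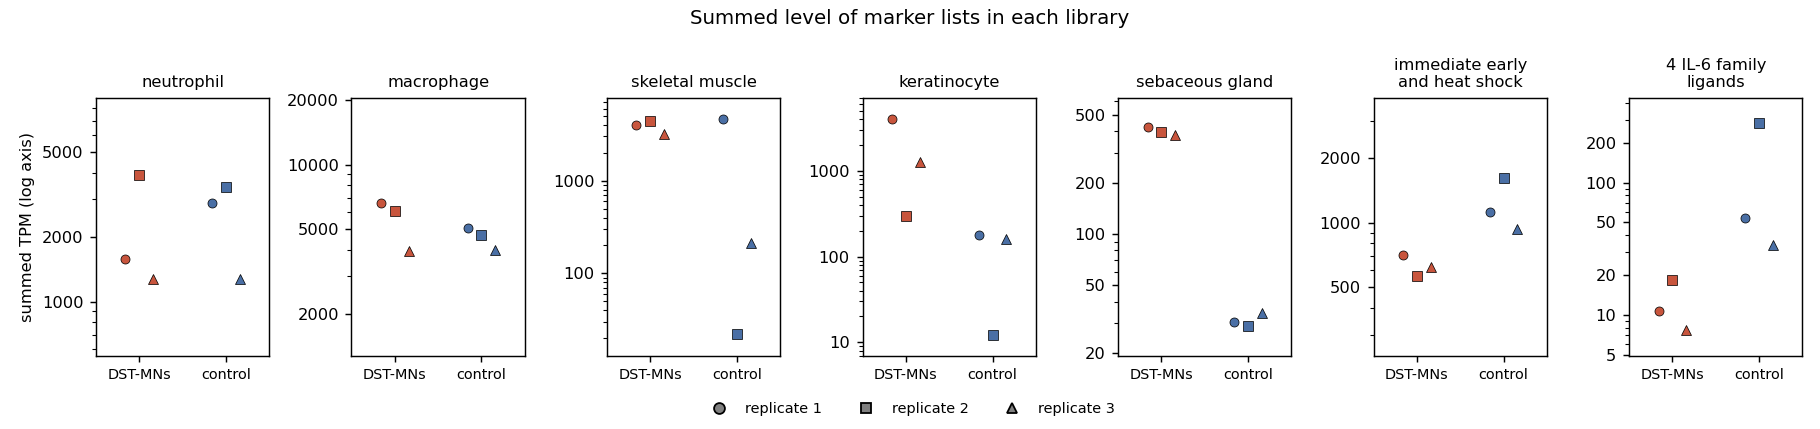
Summed TPM of 6 marker lists and of the 4 ligands on log axes, with the DST-MNs libraries left and the controls right in each panel and 1 symbol per replicate. Skeletal muscle markers are low in controls 2 and 3 only, at 21.9 and 214 TPM, the sebaceous sums of the treated libraries lie above all controls, and the ligand sums of the treated libraries, 7.64 to 18.4 TPM, lie below all controls.

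Of the other ligand genes of the family analysed here, 1 fell. They numbered 5, of which 4 were tested, and Clcf1, which encodes cardiotrophin-like cytokine, passed as lower. It had 9.40, 11.5 and 10.1 TPM in DST-MNs libraries 1 to 3, against 17.3, 19.7 and 19.4 TPM in controls 1 to 3. The values lay close together within each group and did not overlap between them. The log2 change of Clcf1 was -0.98 (SE 0.15, edgeR adjusted p = 0.0499), close to the threshold. With 1 library left out it passed only without control 1 (adjusted p = 0.0482), and its adjusted p was 0.110, 0.0799 and 0.143 without DST-MNs 1, 2 and 3 and 0.224 and 0.182 without controls 2 and 3. Its log2 change ran from -1.03 to -0.90 over these 6 fits. It also missed the threshold with total counts (adjusted p = 0.0579), with no count filter (0.0563), with at least 10 counts in every library (0.0715), in limma-voom (0.0519) and in limma on log2 TPM with pseudocounts of 1 (0.0514) and 0.1 (0.0569).

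Cardiotrophin 1 (Ctf1) had the opposite sign, at 5.01, 5.13 and 3.58 TPM in DST-MNs wounds against 2.74, 2.48 and 2.25 TPM in control wounds (log2 change 0.72, SE 0.27, edgeR adjusted p = 0.257). Cntf and Ebi3 had 95% intervals that included 0, and Il27 had too few reads for the test. All 3 other receptor genes, Cntfr, Il27ra and Il31ra, had positive log2 changes, of 1.58, 0.36 and 1.51, with edgeR adjusted p of 0.361, 0.748 and 0.210. Il27ra and Il31ra had few reads, at 7 to 19 and 8 to 48 counts per library. Cntfr was high in DST-MNs 1 only, at 28.8 TPM, against 3.73 and 4.13 TPM in DST-MNs 2 and 3.

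No gene of the signalling steps passed the test. Of 10 JAK-STAT transducers 0 passed edgeR's test, 1 was lower and 1 higher at an unadjusted p below 0.05, DESeq2 called 1 lower and voom called 0, and their median log2 change was -0.01. Jak2, a kinase bound to gp130, stood at 47.8, 61.9 and 31.6 TPM in DST-MNs libraries and 60.7, 92.3 and 77.6 TPM in controls (log2 change -0.86, SE 0.25, edgeR adjusted p = 0.172). The kinase Tyk2 and the adaptor Gab1 had log2 changes of 0.27 (SE 0.11) and 0.24 (SE 0.10). Stat3 itself stood at 69.9, 75.5 and 46.3 TPM in DST-MNs libraries and 65.4, 73.7 and 72.4 TPM in controls (log2 change -0.30, SE 0.17). Of 7 other negative regulators 0 passed and 0 had an unadjusted p below 0.05, and neither DESeq2 nor voom called any. Ptpn2, Socs1 and Pias1 had their smallest p, with log2 changes of -0.32 (SE 0.16), -0.54 (SE 0.32) and 0.12 (SE 0.10). Of 4 genes of receptor shedding, which releases soluble IL-6 receptor, 0 passed, with 0 at an unadjusted p below 0.05 and 0 by DESeq2 or voom. The sheddase gene Adam10 had a log2 change of -0.38 (SE 0.18), the metalloproteinase inhibitor gene Timp3 one of 0.24 (SE 0.20) and Rhbdf2, whose product controls the maturation of the sheddase ADAM17, one of 0.27 (SE 0.26).

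Of 5 tested cytokines that induce the family, 0 passed, 0 had an unadjusted p below 0.05 and DESeq2 and voom called 0. Il1a had 3.10, 1.67 and 1.87 TPM in DST-MNs libraries 1 to 3 and 9.57, 11.7 and 0.88 TPM in controls 1 to 3, where control 3 was the lowest of all (log2 change -1.92, SE 0.84). Tgfb3, which encodes the TGF-β3 used to regulate the spheroids, had 31.5, 43.5 and 58.0 TPM in DST-MNs and 30.9, 19.9 and 29.4 TPM in control libraries (log2 change 0.58, SE 0.30, edgeR adjusted p = 0.381). Il1b had a log2 change of -0.85 (SE 0.68).

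Listed STAT3 and acute phase targets mostly had lower values, with negative log2 changes in 18 of 21 tested genes and a median of -0.69, against 0.00 over all genes. Of them 2 fell past edgeR's adjusted threshold, where 0.118% of all genes did, and 9 were lower at an unadjusted p below 0.05. Several of these genes also answer to other signals such as IL-1 and hypoxia. Timp1, an inhibitor of metalloproteinases known as a target of oncostatin M and IL-6, fell to 448, 411 and 343 TPM in DST-MNs libraries 1 to 3, against 1087, 2464 and 1860.2 TPM in controls 1 to 3 (log2 change -2.33, SE 0.29, edgeR adjusted p = 0.0281). Its adjusted p was 0.108, 0.0794 and 0.136 without DST-MNs 1, 2 and 3 and 0.0561 and 0.0910 without controls 2 and 3. Lcn2, an iron-scavenging acute phase protein, fell to 54.9, 41.4 and 32.0 TPM in DST-MNs libraries, against 295, 637 and 222 TPM in controls (log2 change -3.35, SE 0.44, edgeR adjusted p = 0.0283). Its adjusted p was 0.110, 0.0859 and 0.147 without DST-MNs 1, 2 and 3.

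Cebpd, a transcription factor gene induced by STAT3, stood at 53.7, 79.5 and 68.4 TPM in DST-MNs libraries 1 to 3, against 154, 190 and 116 TPM in controls 1 to 3 (log2 change -1.34, SE 0.25, edgeR adjusted p = 0.0809). Its groups did not overlap. The other 6 of the 9, named like Cebpd after their values were seen, were Il4r (log2 change -1.44), the lipopolysaccharide-binding protein gene Lbp (-1.60), the chemokine gene Ccl2 (-1.37), the hypoxia-inducible factor gene Hif1a (-1.08), the growth regulator Myc (-0.72) and the survival gene Mcl1 (-0.48). The liver-type fibrinogen genes Fga and Fgg and the hepcidin gene Hamp had too few reads for the test.

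**Figure D5:**
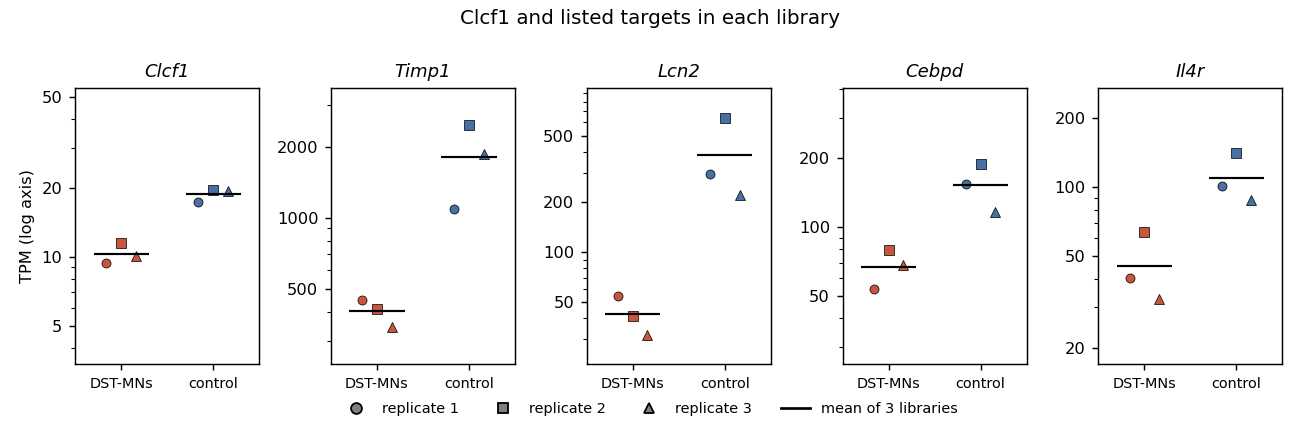
TPM of 5 genes outside the members on log axes, DST-MNs libraries left and controls right, with 1 symbol per replicate and lines for group means. Clcf1 lies at 9.40 to 11.5 TPM in DST-MNs and 17.3 to 19.7 TPM in control wounds, and none of the 5 genes overlaps between the groups.

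The genes with the pattern most like Il6, Il11, Osm and Socs3 were found among 12513 genes by the root mean square difference of log2 CPM deviations over the 6 libraries, a description with no test. Osm and Socs3 were among each other's 5 nearest genes, at a difference of 0.242. Il4r, the interleukin 4 receptor chain, was nearest to Osm (0.201), followed by Srgn, a granule proteoglycan (0.238), Socs3, the mitochondrial superoxide dismutase Sod2 (0.257) and Fam131b (0.264). Nearest to Socs3 were Rnd1 (0.171), Osm, the protease inhibitor Tfpi2 (0.252), Sod2 (0.286) and the dopamine receptor Drd1 (0.313). Timp1 was nearest to Il11 (0.357), followed by the protease inhibitor Slpi (0.366), the procollagen processing enhancer PCOLCE2 (0.383), thrombospondin 1 (Thbs1, 0.410) and the immediate early gene Egr1 (0.443). Differences from Il6 were larger, and its 5 nearest genes were Ca4, a carbonic anhydrase (0.771), Lcn2 (0.875), the neutrophil chemokine Cxcl1 (1.00), the nuclear receptor Nr4a3 (1.04) and its family member Lif (1.07).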

How the data were processed

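Messenger RNA libraries of 6 wounds, 3 per group by the sample titles, were read as pairs on the DNBSEQ-T7 platform, per the labels' protocols. The authors deposited 1 table for 18825 genes with 4 values per library. Its expected counts, estimated read counts deposited without scaling, were 90.5% to 91.4% whole, within a tolerance of 1e-09. The TPM values deposited by the authors sum to 1000000 per library, within rounding. The FPKM values and the normalised counts, a signal made by dividing counts by a factor per library, both deposited by the authors, were not tested. The build was mRatBN7.2, per the submitters' processing notes. The labels state no aligner, counter or use of strand, so reads of overlapping genes cannot be told apart.

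Counts were rounded, filtered with filterByExpr (minimum count 10), scaled with TMM factors and tested with the quasi-likelihood test of edgeR 4.0.16 in R 4.3.3. The SE is the log2 change divided by the square root of F, and 95% intervals use it. CPM deviations use a prior count of 2. The test was checked on simulated data. The alternatives changed the scaling (size factors of DESeq2 1.42.0, upper quartile, total counts), the filter (none, or 10 counts or more per library) and the tool (DESeq2's Wald test, voom and trend of limma 3.58.1, trend on log2 TPM of genes averaging 1 TPM or more, with pseudocounts of 1 and 0.1). They also added a replicate block or left out each library. The named genes were the members, from each other pathway list the genes past the threshold or, with none, the 3 with the smallest p, and the 5 genes nearest to Il6, Il11, Osm and Socs3 among those with a mean log2 CPM of at least 1. Other genes were named after their values were seen. Of 144 list entries 3 were not matched, and 2 were matched through the reference. A listed gene is not reported here. The members and lists were chosen with earlier results of these data known. The labels do not say whether equal replicate numbers pair animals, so no pairing was used.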

Additional observations from a re-analysis of the deposited data

How the results depend on the processing

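In all 16 alternatives Il6, Il11, Lif, Osm, Il6st, Osmr and Socs3 kept negative and Il11ra1 and Lifr positive log2 changes. Il6r changed sign, at 0.10 with total counts, 0.00 with at least 10 counts in every library and 0.10 on log2 TPM with either pseudocount, and it ran from -0.19 to 0.07 with 1 library left out. Total counts moved the median log2 change of all genes to 0.12. The count of changed genes, 112 in all, was 38 with at least 10 counts in every library and 1018 with the Wald test of DESeq2, and ran from 14 without DST-MNs replicate 3 to 402 without control replicate 1. The cause was not tested, and the DESeq2 fit held the same 14427 genes and 6 libraries as the edgeR fit. The Wald test of DESeq2 called 5 members. With the replicate number as a block edgeR called 123 genes, among them 1 member, Il6 (adjusted p = 0.0377). Clcf1 (adjusted p = 0.0791) and Timp1 (0.0529) missed the threshold in that fit. The deviations of same-numbered libraries correlated at -0.02, 0.10 and 0.11 for numbers 1, 2 and 3. With 3 libraries per group these correlations cannot decide whether the number pairs animals, and the labels do not say. The other normalizations and filters, limma-voom and limma on TPM called 0 members, as did each fit without 1 library, where 5 to 7 members had an unadjusted p below 0.05. With 14 to 50 counts of Il6 and 16 to 28 of Il11 in treated libraries, counting error adds to the spread there.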

Other observations

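A few genes around the family had 1 library apart from the others of its group. Cntfr, the binding chain for ciliary neurotrophic factor, had 28.8 TPM in DST-MNs 1, the library with the highest keratinocyte marker sum (4083 TPM), against 3.73 and 4.13 TPM in DST-MNs 2 and 3 and 2.80 to 4.59 TPM in the controls. The adipocyte marker Adipoq was also highest in DST-MNs 1, at 131 TPM. DST-MNs 3, with 1259.6 TPM of keratinocyte markers, had Cntfr within the control range. Ebi3, a shared subunit of IL-27 and IL-35, had 40.8 TPM in DST-MNs 2, the library with the highest neutrophil marker sum (3907 TPM), against 15.5 and 10.8 TPM in DST-MNs 1 and 3 and 7.83 to 23.7 TPM in the controls. Control 2, with a neutrophil marker sum of 3417 TPM, had 16.5 TPM of Ebi3. Serpina3n, an acute phase protease inhibitor, had 143, 25.7 and 152 TPM in DST-MNs libraries 1 to 3 and 77.9, 62.2 and 59.5 TPM in controls 1 to 3, so its treated libraries lay on both sides of the control range. These genes were singled out after their values were seen, and links to the marker sums were not tested.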
